A study of Mus musculus with 9 samples.

Results

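The genes described here are 10 members of the metalloproteinase system: 5 matrix metalloproteinases (Mmp8, Mmp9, Mmp14, Mmp19 and Mmp25), 3 ADAM proteases (Adam8, Adam10 and Adam17) and 2 tissue inhibitors (Timp1 and Timp2). They were chosen by symbol, 10 of the 46517 genes in the deposited table, and all 10 passed the filter of at least 5 reads in any library. Neutrophils positive for Ly6G were isolated from the bone marrow, the blood and the pancreatic tumors of C57BL/6 mice on day 27 after orthotopic transplantation (OT) of pancreatic ductal adenocarcinoma (PDAC) cells, with 3 RNA-seq libraries in each compartment. The transplanted line came from pancreatic tumors of genetically engineered mice and stably expressed luciferase. Per the study's methods, each library was made from pooled mice, and live CD45+ cells were gated as negative for CD3, B220 and NK1.1 and positive for Ly6G and Ly6C, whereas the bone marrow libraries are labelled Ly6G.hi. All 9 libraries came from tumor-bearing mice, so bone marrow and blood were not tumor-free references.

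Matrix metalloproteinases (MMPs) are zinc-dependent enzymes that are made as inactive precursors and cut collagens, gelatin and many non-matrix proteins. Neutrophils load Mmp8, the neutrophil collagenase, and Mmp9, gelatinase B, into granules during their maturation in the bone marrow and release them by degranulation, so that transcript and protein need not move together. ADAM proteases sit in the membrane and release the extracellular parts of surface proteins such as TNF, a step called shedding. Tissue inhibitors of metalloproteinases (TIMPs) bind the active site of MMPs and of some ADAMs.

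The 5 promoters below are shown because Mmp8, Mmp25 and Adam8 were lower in tumor than in bone marrow and blood, and Mmp14 and Timp1 were higher. Each is the 250 bases before the RefSeq start of the gene on GRCm38.p6, written 5′ to 3′ on the strand of the gene, and capitals mark matches to the motifs that were searched. RefSeq promoters were matched for 8 of the 10 genes, without Mmp9 and Mmp19.
Mmp8: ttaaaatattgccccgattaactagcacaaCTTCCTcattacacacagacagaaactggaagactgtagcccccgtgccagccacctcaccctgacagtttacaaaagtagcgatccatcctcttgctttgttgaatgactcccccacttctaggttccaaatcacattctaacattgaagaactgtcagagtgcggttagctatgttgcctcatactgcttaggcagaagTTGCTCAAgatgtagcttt
Mmp25: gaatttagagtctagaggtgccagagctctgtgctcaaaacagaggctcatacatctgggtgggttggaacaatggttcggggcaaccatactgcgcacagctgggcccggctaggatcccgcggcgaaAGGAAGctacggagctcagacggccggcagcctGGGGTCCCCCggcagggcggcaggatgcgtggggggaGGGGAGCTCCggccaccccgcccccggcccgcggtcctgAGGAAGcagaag
Adam8: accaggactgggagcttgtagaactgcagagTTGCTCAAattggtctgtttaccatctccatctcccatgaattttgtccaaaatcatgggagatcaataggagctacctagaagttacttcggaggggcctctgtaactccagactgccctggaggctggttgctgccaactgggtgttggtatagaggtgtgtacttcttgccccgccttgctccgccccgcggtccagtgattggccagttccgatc
Mmp14: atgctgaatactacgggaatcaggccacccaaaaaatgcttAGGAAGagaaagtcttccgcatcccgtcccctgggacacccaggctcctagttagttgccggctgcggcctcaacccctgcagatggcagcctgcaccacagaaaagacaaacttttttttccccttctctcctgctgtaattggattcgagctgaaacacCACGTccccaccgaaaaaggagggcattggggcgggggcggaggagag
Timp1: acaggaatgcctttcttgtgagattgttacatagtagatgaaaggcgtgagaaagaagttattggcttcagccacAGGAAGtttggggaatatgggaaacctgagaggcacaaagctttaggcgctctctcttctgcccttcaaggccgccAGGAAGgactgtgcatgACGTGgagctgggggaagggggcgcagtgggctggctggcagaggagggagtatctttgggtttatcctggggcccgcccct
The windows lie at chr9:7558179-7558428 (Mmp8, plus strand), chr17:23645270-23645519 (Mmp25, minus strand), chr7:139992563-139992812 (Adam8, minus strand), chr14:54431348-54431597 (Mmp14, plus strand) and chrX:20869916-20870165 (Timp1, plus strand). The 6 motifs searched on both strands were the TATA box TATAAA, the AP-1 site TGANTCA, the C/EBP site TTGCNNAA, the ETS core AGGAAG, the hypoxia response core ACGTG and the NF-kB site. Mmp8 and Adam8 each held the C/EBP letters TTGCTCAA, at -19 to -12 in Mmp8 and at -219 to -212 in Adam8, counted backwards from the last base before the start. The C/EBP pattern was found in 9.56% of 32851 mouse promoter windows of this length. Mmp25 held 2 matches to the NF-kB site, at -88 to -79 and at -51 to -42, a pattern present in 7.25% of windows. Mmp14 held the hypoxia response core at -48 to -44 on the opposite strand, and Timp1 held it at -82 to -78, with 16.6% of windows holding this pattern. Adam10, whose window is not shown and which was not called in any comparison, also held this core, at -64 to -60 and at -63 to -59. The ETS core was present in Mmp8, Mmp25, Mmp14 and Timp1 and in 29.5% of windows. It was also present in Adam10 and Adam17, which were not called. The motifs thus do not set the genes higher in tumor apart from the other members. No TATAAA or TGANTCA was found in the 5 windows, against 12.4% and 6.75% of all windows. These matches describe the letters only, and binding was not measured. The 50 bases after the RefSeq start were found in a GENCODE M21 transcript of the gene for Mmp25, Adam8 and Timp1. They were not found for Mmp8 and Mmp14, so the positions in those windows hold for the RefSeq start only.

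The values are log2 FPKM, that is, log2 of fragments per kilobase of gene length per 1000000 reads, for which whole reads could be recovered. Between 4580807 and 7949367 reads were recovered per library. The authors' scaling factors of library size were 1.08 to 1.22 in tumor and 0.796 to 0.881 in the other libraries, so that with plain totals the median log2 fold change of all genes was higher by 0.39 in tumor against blood and by 0.43 against bone marrow. The 10 mature neutrophil markers, among them Csf3r and S100a8, summed to 19387 to 21623 reads per 1000000 reads of the library (RPM) in bone marrow, between 23150 and 24511 in blood, and between 6612 and 8176 in tumor, with no marker at 0 in any group. Gene by gene, 2 of these 10 were higher and 8 lower in blood than in bone marrow (median log2 fold change -1.12). Csf3r (52750 to 72754 reads in blood) was a large part of the blood sum. The 12 epithelial markers summed to 8.02 to 12 RPM in bone marrow, between 21.6 and 149.3 in blood, and between 3117 and 6617 in tumor. The 12 fibroblast markers summed to 12.7 to 18.3, 0.359 to 5.89 and 1339 to 1635 RPM in the same order, with Pdgfra and Postn at 0 in bone marrow and Col5a1, Lum, Pdgfrb and Postn at 0 in blood. In tumor no marker of either list was at 0. In bulk RNA, fewer cells of a type and less RNA per cell cannot be told apart. Log2 fold changes were tested with limma over all 17714 genes that passed the filter, with Benjamini-Hochberg adjustment, and errors are standard errors (SE) unless given as SD with n = 3.

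In tumor against blood, Mmp14 and Timp1 were higher, Mmp8, Mmp9, Mmp25, Mmp19 and Adam8 were lower, and Adam10, Adam17 and Timp2 did not pass the test. This is 2 higher and 5 lower of 10, where 54.8% of all genes tested were called, 33.7% higher and 21.1% lower. In tumor against bone marrow, 3 of 10 were higher (Mmp14, Mmp19 and Timp1) and 5 were lower (Mmp8, Mmp9, Mmp25, Adam8 and Timp2), beside 26.8% and 19.5% of all genes (46.3% in all). In blood against bone marrow, Mmp19 alone of the 10 was higher and 4 were lower (Mmp8, Mmp9, Mmp25 and Timp2), beside 13.7% and 18.1% of all genes (31.8% in all). Mmp8, Mmp9, Mmp25 and Adam8 were lower in tumor than in both other groups, as were 13.2% of all genes, and Mmp14 and Timp1 were higher than in both, as were 20.7% of all genes. Both tumor comparisons use the same tumor libraries, so they are not independent. Mmp14 and Timp1 reached 5 reads in tumor libraries alone, so they passed the filter through the group where they were high. Their calls are thus in part set by the filter.

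**Figure D1:**
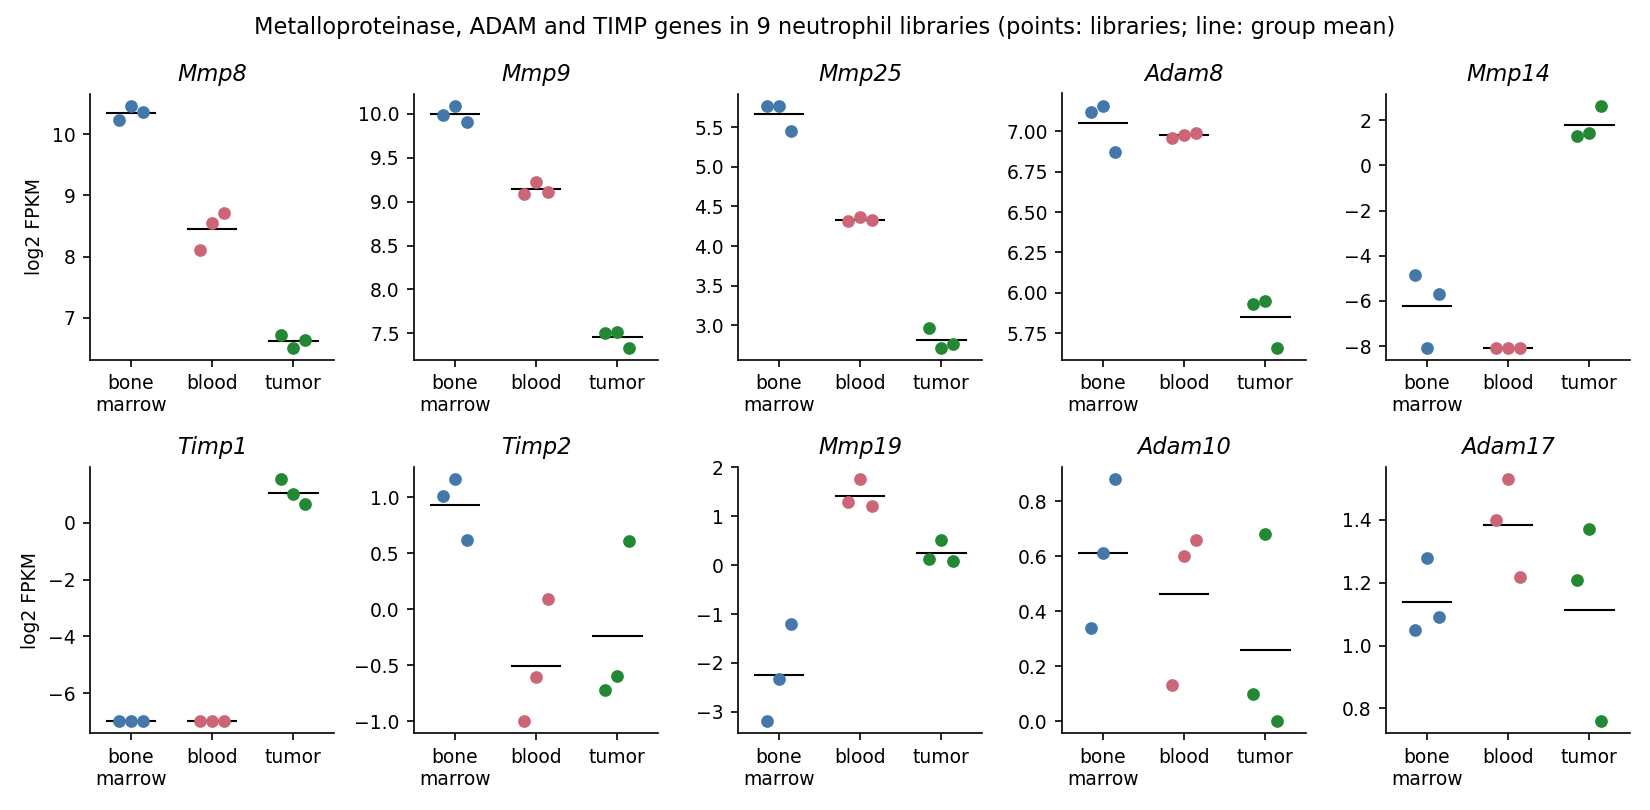
Log2 FPKM (y axis, own scale in each panel) of the 10 genes in each of the 3 bone marrow, 3 blood and 3 tumor libraries (points), with the group mean as a line. Mmp8, Mmp9 and Mmp25 step down from bone marrow to blood to tumor with no overlap, Adam8 is lower in tumor alone, and Mmp14 and Timp1 lie at or near the value of no read outside tumor.

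The granule metalloproteinases had the most reads of the 10 genes. Mmp8 (9:7558456-7568485, GRCm38, plus strand) was at 10.24, 10.47 and 10.36 log2 FPKM in bone marrow, at 8.11, 8.55 and 8.71 in blood and at 6.72, 6.51 and 6.63 in tumor. The 3 groups did not overlap, and the order of levels was bone marrow, blood, tumor. Mmp8 was 3.73 log2 units lower in tumor than in bone marrow (log2 fold change -3.73, SE 0.16, 13.3-fold, limma adjusted p = 9.67e-08). Against blood the log2 fold change was -1.83 (SE 0.16, 3.57-fold, limma adjusted p = 5.2e-06). Blood was in turn lower than bone marrow (log2 fold change -1.90, SE 0.16, 3.73-fold, limma adjusted p = 1.11e-05). The bone marrow libraries each held 80584 to 87781 Mmp8 reads, the blood libraries 10943 to 21038 and the tumor libraries 6581 to 7897.

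Mmp9 (2:164940780-164955850, plus strand) was at 9.98, 10.09 and 9.90 log2 FPKM in bone marrow, at 9.09, 9.22 and 9.11 in blood and at 7.51, 7.52 and 7.34 in tumor. The SD within a group was 0.10 or less (n = 3), and the groups did not overlap. For Mmp9 the larger step was between blood and tumor (log2 fold change -1.68, SE 0.11, 3.21-fold, limma adjusted p = 1.23e-06), and the smaller between bone marrow and blood (-0.85, SE 0.11, 1.81-fold, adjusted p = 0.000272). From bone marrow to tumor Mmp9 was 5.79-fold lower (log2 fold change -2.53, SE 0.11, limma adjusted p = 1.21e-07). Even in tumor, 17069 to 20975 reads per library fell on Mmp9.

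Bone marrow differed from the other compartments in which of Mmp8 and Mmp9 stood higher. In reads per kilobase of exon per 1000000 scaled reads (exon RPKM), Mmp8 stood above Mmp9 in bone marrow, at 5442 ± 436.5 against 4346 ± 292 (SD, n = 3), with no overlap. In blood the order was the opposite, with Mmp9 at 2405 ± 110.4 and Mmp8 at 1479 ± 305.9 (SD, n = 3). In tumor Mmp9 was at 750.8 ± 51.5 and Mmp8 at 408.8 ± 29.1 (SD, n = 3). The log2 ratio of Mmp8 to Mmp9 within a library was 1.20 lower in tumor than in bone marrow (difference -1.20) and 1.05 lower in blood than in bone marrow (difference -1.05), each without overlap and with an exact permutation p of 0.1, two-sided, which is the smallest that 3 against 3 libraries can give. Tumor and blood overlapped in this ratio (difference -0.15, exact permutation p = 0.4). These ratios do not depend on library size. Together the 10 genes took 2.56% to 2.7% of all recovered reads in bone marrow, between 1.15% and 1.26% in blood, and between 0.545% and 0.578% in tumor. Of those reads, Mmp8 and Mmp9 held 89.8% to 91.2%, 82.7% to 84% and 73.6% to 75.1%, respectively.

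Of the genes listed as immature neutrophil markers, most of them granule genes, some had another order of groups than Mmp8 and Mmp9. The 10 immature neutrophil markers, among them Ltf, Camp and Ngp of the secondary granules and Mpo and Elane of the primary granules, summed to 73750 to 81910 RPM in bone marrow, between 1884 and 2953 in blood, and between 6740 and 10634 in tumor. All 10 were lower in blood than in bone marrow and 6 of 10 were higher in tumor than in blood, where Mmp8 and Mmp9 were lower. Against bone marrow all 10 were lower in tumor (median log2 fold change -4.78), as were Mmp8 and Mmp9. The mature neutrophil markers mostly shared the direction of Mmp8 and Mmp9 in tumor against both other groups. All 10 of them were lower than in blood (median log2 fold change -1.91), and 9 of 10 were lower than in bone marrow (median -2.73). Lactotransferrin (Ltf), chosen after its values were seen, was 2.37 higher in tumor than in blood on the log2 scale (SE 0.21, limma adjusted p = 7.02e-06). The summed level of monocyte markers (6 genes) had the group order of Mmp8 and Mmp9. It was 1236 to 1518 RPM in bone marrow, between 444.1 and 712.5 in blood, and between 296.9 and 430.4 in tumor. Of these genes, 5 were called lower and 0 higher against blood in the tumor libraries (median log2 fold change -3.27). Against bone marrow, tumor had 5 lower and 1 higher (median -4.23), and blood had 2 lower and 1 higher (median -0.85). The part of maturation stage or of monocytes in the values of Mmp8 and Mmp9 was not tested.

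Mmp25 (17:23628311-23645277, minus strand) encodes leukolysin, a metalloproteinase that is held to the neutrophil membrane by a glycolipid anchor. It was at 5.76, 5.77 and 5.45 log2 FPKM in bone marrow, at 4.31, 4.36 and 4.33 in blood and at 2.97, 2.72 and 2.76 in tumor. The groups were ordered as for Mmp8 and Mmp9, with no overlap. Mmp25 was 7.17-fold lower in tumor than in bone marrow (log2 fold change -2.84, SE 0.12, limma adjusted p = 9.67e-08) and 2.86-fold lower than in blood (-1.52, SE 0.12, adjusted p = 3.22e-06). Blood was 2.5-fold below bone marrow (log2 fold change -1.32, SE 0.12, limma adjusted p = 2.11e-05).

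Adam8 (7:139978932-139992562, minus strand) encodes a sheddase of leukocytes that is kept in neutrophil granules and reaches the surface on activation. Its level was 7.12, 7.16 and 6.87 log2 FPKM in bone marrow, 6.96, 6.98 and 6.99 in blood and 5.93, 5.95 and 5.66 in tumor. Bone marrow and blood overlapped, and every tumor library lay below both. Against blood the log2 fold change was -1.13 (SE 0.12, 2.19-fold, limma adjusted p = 2.39e-05), and against bone marrow it was -1.20 (SE 0.12, 2.3-fold, limma adjusted p = 1.91e-05). Blood and bone marrow did not pass the test for Adam8, with a difference of -0.07 (95% confidence interval -0.34 to 0.20, limma adjusted p = 0.722). Mmp8, Mmp9, Mmp25 and Adam8 kept their direction and their calls against both groups in all 24 alternative settings, in which the Adam8 log2 fold change against blood ranged from -1.88 to -0.59.

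**Figure D2:**
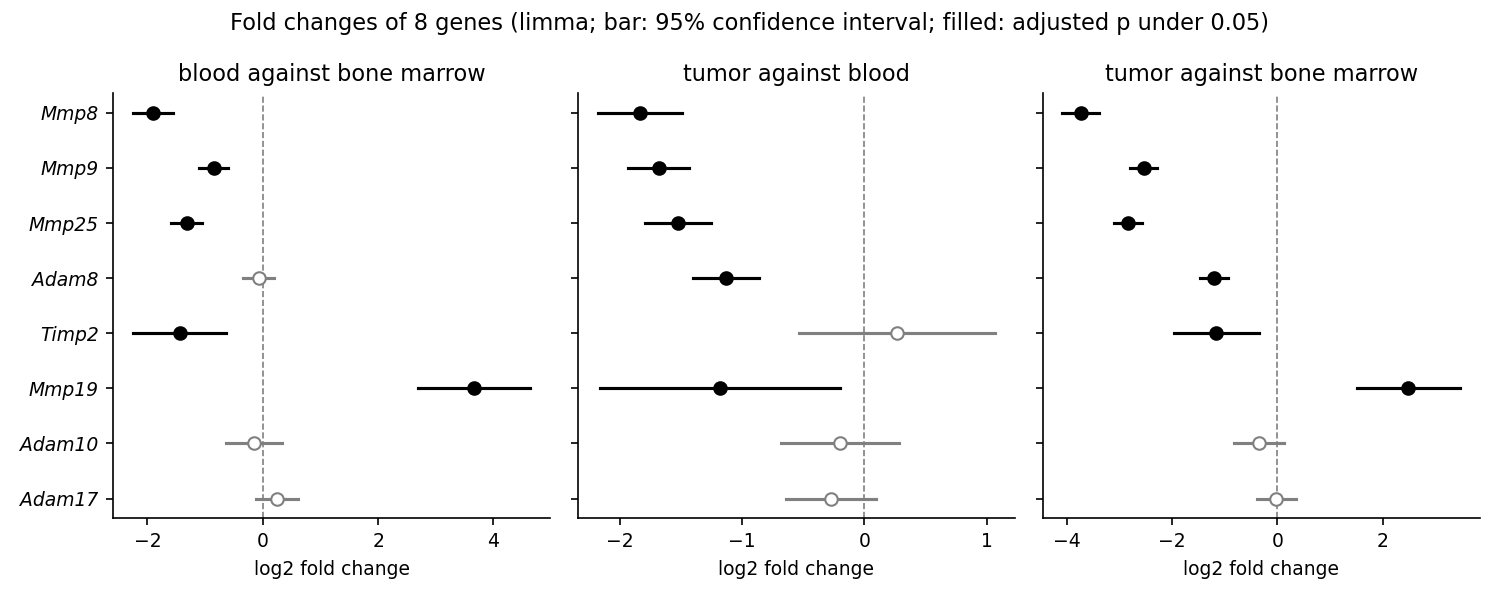
Log2 fold changes (x axis) of 8 genes in the 3 comparisons, as points with 95% confidence intervals from limma, filled where the adjusted p was under 0.05. Timp1 and Mmp14 are not drawn, because they had no read in some groups; the sizes drawn for Mmp19 against bone marrow also depend on the constant added before the log. Mmp8, Mmp9 and Mmp25 are to the left of 0 in all 3 panels, while Mmp19 is to the right in blood and in tumor against bone marrow and to the left in tumor against blood.

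Adam10 and Adam17, the main sheddases of most cell types, did not pass the test in any of the 3 comparisons. Adam10 (9:70678997-70780229, plus strand), which cuts Notch receptors among others, was at 0.34, 0.61 and 0.88 log2 FPKM in bone marrow, 0.13, 0.60 and 0.66 in blood and 0.10, 0.68 and 0.00 in tumor. Adam17 (12:21323509-21373632, minus strand), the TNF sheddase, was at 1.05, 1.28 and 1.09 in bone marrow, 1.40, 1.53 and 1.22 in blood and 1.21, 1.37 and 0.76 in tumor. The groups overlapped for both genes. The tumor-minus-blood difference was -0.20 for Adam10 (95% confidence interval -0.68 to 0.28, limma adjusted p = 0.447) and -0.27 for Adam17 (-0.64 to 0.10, adjusted p = 0.195). Against bone marrow it was -0.35 for Adam10 (95% confidence interval -0.83 to 0.13, limma adjusted p = 0.21) and -0.02 for Adam17 (-0.39 to 0.35, adjusted p = 0.924). Blood minus bone marrow was -0.15 for Adam10 (95% confidence interval -0.63 to 0.33) and 0.25 for Adam17 (-0.12 to 0.62). These intervals leave room for changes of up to about 0.83 log2 units. The sign of both tumor differences depended on the scaling of the libraries: with plain totals Adam10 stood at 0.25 and 0.10 and Adam17 at 0.18 and 0.43 against blood and bone marrow, and with median centring at -0.95, -0.83, -1.02 and -0.50 in the same order, all 4 of the latter called lower. With plain totals Adam17 was called higher in tumor than in bone marrow (limma adjusted p = 0.0262), so that its call had opposite directions under the 2 scalings. The log2 ratio of Adam17 to Adam10 in a library, which does not depend on scaling, differed by -0.07 between tumor and blood (exact permutation p = 0.8) and by 0.33 between tumor and bone marrow (exact permutation p = 0.2), with overlap in both.

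Mmp19 (10:128790910-128800824, plus strand), a secreted metalloproteinase of many tissues, had a pattern of its own, highest in blood. It was at -3.19, -2.32 and -1.21 log2 FPKM in bone marrow, with 7, 11 and 28 reads, at 1.30, 1.76 and 1.21 in blood, with 96, 187 and 107 reads, and at 0.13, 0.51 and 0.09 in tumor, with 67, 106 and 83 reads. None of the 3 groups overlapped. Blood was 12.7-fold above bone marrow (log2 fold change 3.67, SE 0.44, limma adjusted p = 0.000136), and tumor was 5.59-fold above bone marrow (2.48, SE 0.44, adjusted p = 0.000923). Both sizes rest on few bone marrow reads and depend on the constant before the log: over the 24 alternatives they ranged from 1.58 to 4.18 and from 0.82 to 3.0 on the log2 scale, lowest with log2(FPKM + 1), and all were called. The difference between tumor and blood was -1.18 (SE 0.44, 2.27-fold, limma adjusted p = 0.0423), and it did not pass the test in 11 of 24 alternative settings, 7 of them with 1 library left out, with adjusted p from 0.00263 to 0.185. Tmem198b overlaps Mmp19 on the opposite strand and had 14 to 44 reads in bone marrow, between 20 and 77 in blood, and between 64 and 115 in tumor, an order unlike that of Mmp19. Macrophage markers, at 464.2 to 480.0 RPM in bone marrow, between 1409 and 1590 in blood, and between 629.4 and 839.1 in tumor over 12 genes, had a summed level that was highest in blood, as was Mmp19, with Csf1r (4796 to 6885 reads in blood) as a large part of it. Gene by gene the list differed from this, with 4 of 12 higher and 3 lower in blood than in bone marrow (median log2 fold change -0.57), 2 higher and 2 lower in tumor than in blood (median 1.25), and Ms4a7 at 0 in blood. Platelet markers (9 genes) were at 7.6 to 12.5, 554.2 to 757.3 and 5.23 to 12.5 RPM, lymphocyte markers (10 genes) at 31.8 to 61.5, 86.2 to 156.1 and 7.34 to 11.6, and red cell markers (7 genes) at 29.7 to 65.7, 252.1 to 494.4 and 12.9 to 154.1, in bone marrow, blood and tumor, respectively. The part of other cells in the Mmp19 values was not tested.

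Mmp14 (14:54431612-54445364, plus strand), the membrane-type metalloproteinase MT1-MMP that activates pro-Mmp2, was read almost only in tumor. The tumor libraries had 145, 196 and 477 reads, at 1.28, 1.43 and 2.64 log2 FPKM, the bone marrow libraries had 2, 0 and 1 reads, and no read was found in the 3 blood libraries. Every tumor library lay above all others. Tumor exceeded blood in Mmp14 by at least 178.6-fold, taking 3 reads over the group as the limit that a count of 0 allows. The limma adjusted p was 8.34e-06, but the blood libraries shared 1 value, set by the constant before the log (SD 0.00). Mmp14 also passed the filter through tumor alone, so this p-value is no support for the bound. Against bone marrow the ratio of reads per scaled library was 238.5 (95% exact counting interval 81.3 to 1159), with a limma adjusted p of 4.28e-05. Tumor replicate 3 held 477 of the 818 tumor reads, and without it the bound over blood was 117.4-fold and the ratio to bone marrow 156.8. With plain library totals the bound was 244.7-fold and the ratio 325.6. Counting intervals were taken from reads summed over the 3 libraries of a group. They cover counting error only and leave out the spread between pools of mice. Whether PCR duplicates were removed is not given in the sources used here.

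Timp1 (X:20870166-20874735, plus strand), a secreted inhibitor of most MMPs, was read in tumor alone. The tumor libraries had 82, 69 and 57 reads, at 1.54, 1.00 and 0.66 log2 FPKM, and the 6 other libraries had 0. Tumor exceeded blood in Timp1 by at least 45.4-fold and bone marrow by at least 60.6-fold, with the same limit of 3 reads over the group. The limma adjusted p was 6.99e-06 and 8.47e-06, respectively. The libraries outside tumor shared 1 value, set by the constant before the log (SD 0.00). Timp1 also passed the filter through tumor alone, so these p-values are no support for the bounds. With plain library totals these bounds were 62.2 and 82.8. Syn1, which overlaps Timp1 on the opposite strand, had 25 to 49 reads in bone marrow, between 40 and 76 in blood, and between 15 and 37 in tumor, so that its reads did not follow those of Timp1.

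Timp2 (11:118301069-118355740, minus strand), which inhibits MMPs and also takes part in the activation of pro-Mmp2 by Mmp14, differed from Timp1. It was highest in bone marrow, at 1.01, 1.16 and 0.62 log2 FPKM, and stood at -1.0, -0.61 and 0.09 in blood and at -0.72, -0.60 and 0.61 in tumor. Blood and tumor overlapped, with a difference of 0.27 (SE 0.36, 95% confidence interval -0.53 to 1.07, limma adjusted p = 0.55). This difference was -0.16 without tumor replicate 3 and -0.48 with median centring. Blood was lower than bone marrow (log2 fold change -1.43, SE 0.36, 2.7-fold, limma adjusted p = 0.0116). Tumor was also lower than bone marrow (log2 fold change -1.17, SE 0.36, 2.24-fold, limma adjusted p = 0.0219), although the call was lost in 6 of 24 alternative settings, 4 of them with 1 library left out, with adjusted p up to 0.135.

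Mmp14 and Timp1 were higher in the same libraries as the epithelial and fibroblast markers, of which 12 of 12 and 11 of 12 were called higher in tumor than in blood, and 12 of 12 and 10 of 12 higher than in bone marrow. Within the tumor group, the epithelial sums were 4157, 3117 and 6617 RPM in replicates 1, 2 and 3, and the fibroblast sums 1339, 1373 and 1635. Mmp14 was at 26.6, 28.1 and 73.3 RPM in these libraries, Timp2 at 37.8, 39 and 101.9, and Timp1 at 15.1, 9.9 and 8.76. Tumor replicate 3 thus held the highest epithelial and fibroblast sums, the highest Mmp14 and Timp2 and the lowest Timp1. In blood replicate 2, where all 12 epithelial markers had reads and summed to 149.3 RPM, Mmp14 and Timp1 had no read. That sum was far below the tumor sums of 3117 to 6617 RPM, so no conclusion is drawn from these counts of 0. The part of epithelial cells and fibroblasts in the tumor values of Mmp14, Timp1 and Timp2 was not tested. Endothelial markers were at 14.7 to 21 RPM in bone marrow, between 95.9 and 137.3 in blood, and between 123.9 and 152.8 in tumor. Of these 9 genes, 6 were higher and 1 lower in tumor than in blood, and 8 were higher than in bone marrow, while Cdh5 and Tek were at 0 in blood and Vwf (305 to 602 reads in blood) was a large part of the blood sum.

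**Figure D3:**
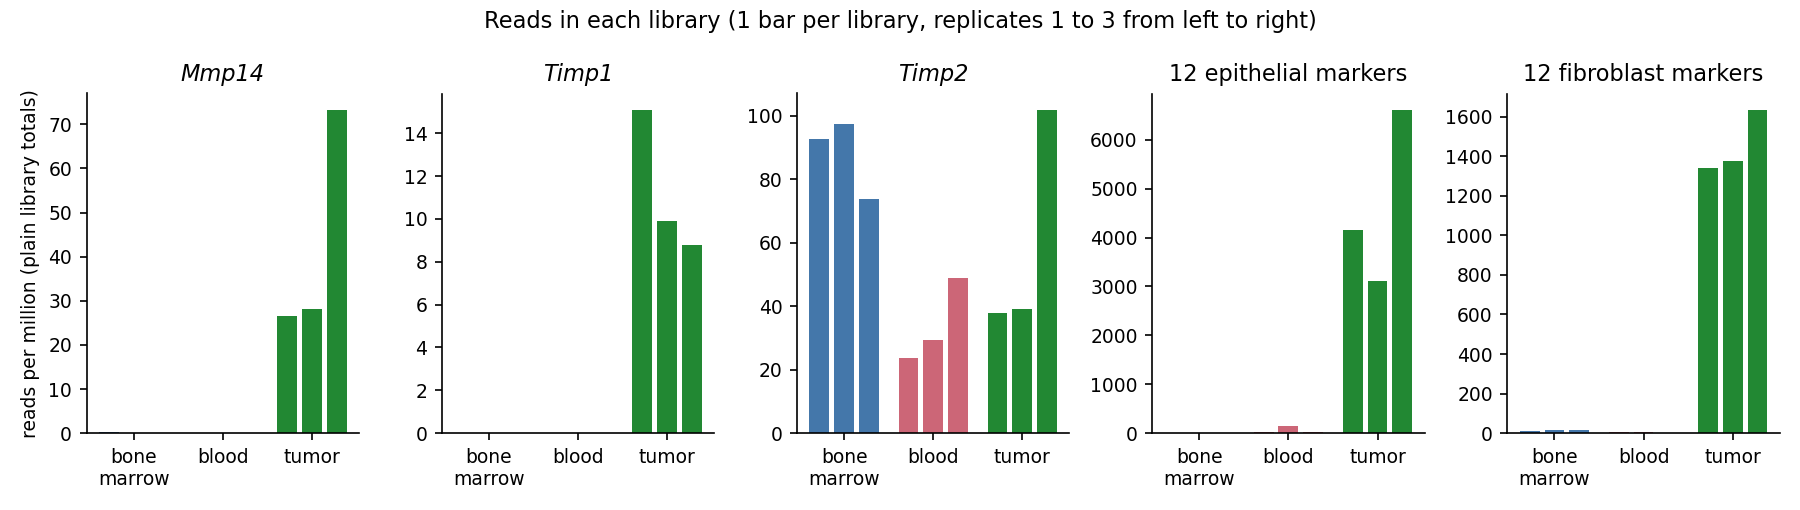
RPM over plain library totals (y axis, from 0, own scale in each panel) for Mmp14, Timp1 and Timp2 and for the sums of 12 epithelial and 12 fibroblast markers, with 1 bar per library. Mmp14 and Timp1 are at or near 0 outside tumor as are both marker sums, and tumor replicate 3 has the highest bars for Mmp14 (73.3), Timp2 (101.9) and both marker sums but the lowest of the tumor bars for Timp1 (8.76).

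On a scale per exon length, the order of the 10 genes shifted between compartments mainly below the leading genes. In bone marrow the order was Mmp8, Mmp9, Adam8 (390.6 ± 40.7 exon RPKM, SD, n = 3), Mmp25 (151.6 ± 18.3), Adam10 (31.9 ± 5.95), Timp2 (27 ± 5.06), Adam17 (15.4 ± 1.34), Mmp19 (0.68 ± 0.462), Mmp14 and Timp1, and among neighbours only Adam10 and Timp2, and Mmp14 and Timp1, overlapped. In blood Mmp9 and Mmp8 were followed by Adam8 (370.5 ± 4.3), Mmp25 (60.2 ± 1.06), Adam10 (28.8 ± 5.44), Adam17 (18.3 ± 1.91), Timp2 (10.4 ± 4.1) and Mmp19 (7.6 ± 1.64), with overlap of the last pair. In tumor Adam8 (170.1 ± 18.7) was followed by Adam10 (25.3 ± 6.75) and Mmp25 (21.1 ± 1.93), which overlapped. Adam17 (15.4 ± 3.23), Timp2 (13.1 ± 7.25), Timp1 (11.1 ± 3.47), Mmp14 (6.12 ± 3.44) and Mmp19 (3.33 ± 0.557) came last in tumor, each overlapping the one before it in this order from Timp2 on. Mmp25, the fourth in bone marrow and in blood, was thus not separable from Adam10 in tumor on this scale. The scale takes all reads as exonic, and whether intronic reads were counted is not given. Adam10 spans 101233 bases with 4913 in exons, and Mmp25 spans 16967 with 5303, so intronic reads could shift their order.

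**Figure D4:**
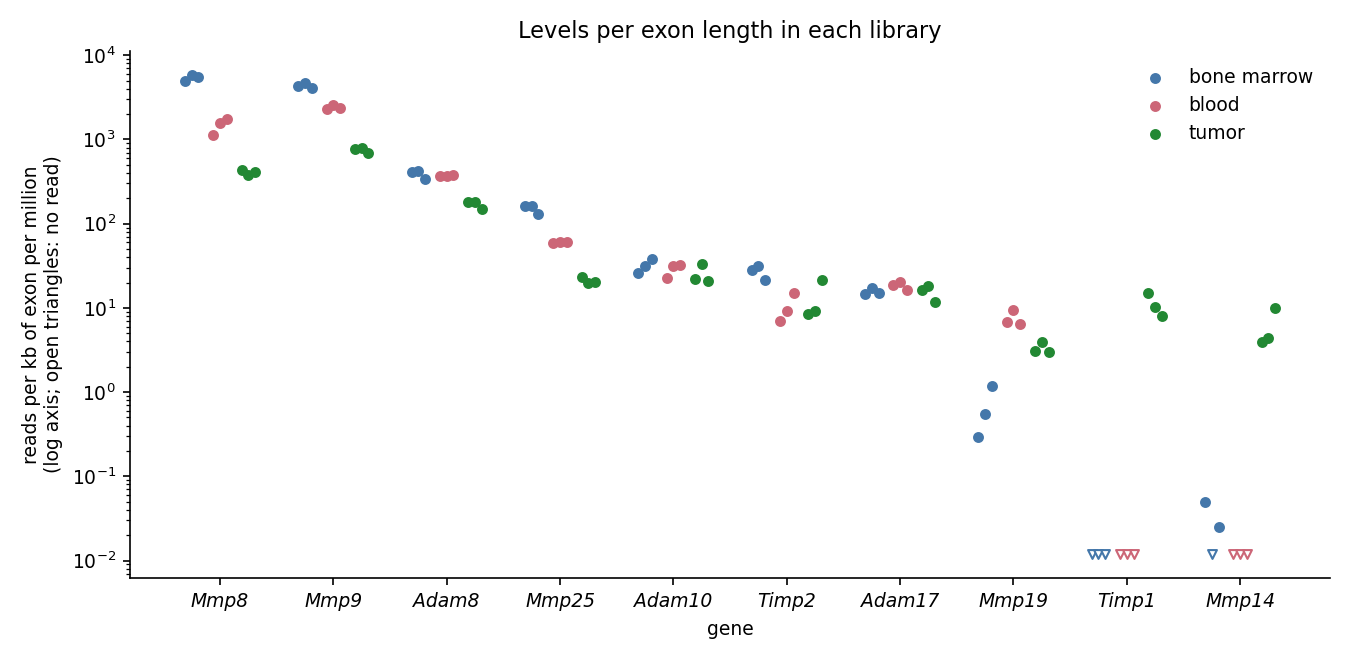
Exon RPKM (y axis, log scale) of each gene in every library, with open triangles at the bottom for libraries without a read. Mmp8 lies above Mmp9 in bone marrow (5442 and 4346 on average) and below it in blood and tumor, and Timp1 and Mmp14 reach the range of Timp2 in tumor only.

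Of the 129 genes in 8 lists that surround these members, the other MMPs were mostly read in tumor. Of 18 listed, 14 had reads and 12 were tested. Of the tested genes, 10 were higher in tumor than in blood, and 8 were higher and 1 lower (Mmp27) than in bone marrow. Over all genes tested, 33.7% were higher and 21.1% lower in tumor than in blood, and 26.8% and 19.5% than in bone marrow. These shares stand beside the counts of each list. The medians of the 12 tested MMPs on the log2 scale were 4.67 against blood and 4.16 against bone marrow, beside 0.50 and 0.29 over all genes. They were 3.81 and 3.32 with the genes that had no read in the group compared with tumor placed at their bound (4 and 5 genes). Mmp3, Mmp7, Mmp10, Mmp11, Mmp12, Mmp13, Mmp15, Mmp16 and Mmp28 reached 5 reads in tumor libraries alone. They passed the filter through the group where they were high, so these counts and medians are in part set by the filter. The same holds for genes of the other lists that reached 5 reads in tumor alone. Mmp12, the macrophage elastase, had 68 to 173 reads in tumor, at most 3 in a blood library and at most 1 in bone marrow, a ratio of 71 against blood (95% counting interval 24.1 to 346). Mmp15, another membrane-type enzyme, had 49 to 130 reads in tumor and stood at least 71.7-fold above bone marrow, where it had none, and at a ratio of 161.2 (counting interval 28.7 to 6392) to blood. Mmp7, matrilysin, had 8 to 20 reads in tumor and stood at least 9.39-fold above blood.

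The other ADAM genes moved in both directions, as did the tested genes as a whole (33.7% higher and 21.1% lower than in blood). Of 31 listed, 16 were tested, with 5 higher and 6 lower in tumor than in blood and 4 higher and 6 lower than in bone marrow. Adam5, Adam11, Adam23, Adam32 and Adam33 reached 5 reads in tumor libraries alone. The medians of the log2 fold changes against blood and bone marrow were 1.47 and 1.90, or 0.88 and 0.97 with genes at their bound. The 3 named by the size of their difference from blood were low in reads: Adam30 had 20 to 48 reads in blood and at most 1 in tumor (log2 fold change -5.92, SE 0.89, limma adjusted p = 0.000249), Adam3 had 9 to 21 and at most 1, and Adam33 had none and 5 to 8. Among ADAMTS genes, the secreted relatives that cut proteoglycans and procollagens, 13 of 19 were tested. Of these, 8 were higher and 2 lower in tumor than in blood and 6 higher and 1 lower than in bone marrow, with medians of 3.49 and 2.88, or 3.27 and 2.88 at the bounds. Adamts4, Adamts6, Adamts9, Adamts12 and Adamts13 reached 5 reads in tumor libraries alone. Adamts1 had 133 to 194 reads in tumor and none in blood, which makes it at least 108.5-fold higher, while Adamts4 was at least 21.4-fold and Adamts9 at least 16.8-fold higher than in blood.

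Of 6 other metalloproteinase inhibitors, 5 were tested, with 2 higher and 1 lower in tumor than in either other group and medians of 2.67 and 3.53, or 2.67 and 2.47 at the bounds. Timp4, A2m and Pzp reached 5 reads in tumor libraries alone. Timp3, a matrix-bound inhibitor that also acts on Adam17, had 381 to 409 reads in tumor, 2 to 3 in blood and 2 to 8 in bone marrow (log2 fold change against blood 6.54, SE 0.56, limma adjusted p = 5.11e-06). A2m, a broad protease inhibitor of plasma, had 4 to 42 reads in tumor and none elsewhere, which is at least 18.1-fold above blood. Reck, a membrane-anchored inhibitor of Mmp9 and Mmp14, went the other way, with 711 to 797 reads in bone marrow, between 98 and 155 in blood, and between 34 and 62 in tumor. Reck in tumor had a log2 fold change of -4.11 against bone marrow (SE 0.28, limma adjusted p = 1.39e-06) and of -1.86 against blood (SE 0.28, adjusted p = 0.000275), which gives Reck the order of groups seen for Mmp8 and Mmp9.

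Of 12 convertases and other activators, 11 were tested; 7 were higher and 1 lower in tumor than in blood, 6 were higher and 4 lower than in bone marrow, and the medians were 4.30 and 0.69, or 3.87 and 0.69 at the bounds. Plat, tissue plasminogen activator, had 1018 to 2400 reads in tumor and at most 1 in any other library, a ratio of 1500 to blood (95% counting interval 415.0 to 12390). Pcsk6, a proprotein convertase, had 11 to 36 reads in tumor and none elsewhere, and Pcsk5 had 15 to 31 against at most 1. Furin, the convertase that removes the propeptide of Mmp14 and of ADAMs, was above bone marrow in tumor (log2 fold change 1.13, SE 0.14, limma adjusted p = 9.43e-05) and stood at -0.25 against blood (SE 0.14, adjusted p = 0.16); it is named beside the rule, after its values were seen.

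Partners of Adam10 and Adam17 were called in both directions, as were the tested genes as a whole. Over all genes, 33.7% were higher and 21.1% lower in tumor than in blood, and 26.8% and 19.5% than in bone marrow. Of 12 listed, 11 were tested, with 3 higher and 3 lower in tumor than in blood, 2 higher and 4 lower than in bone marrow, and medians of 0.23 and -0.77. Rhbdf2, the iRhom that carries Adam17 to the surface in immune cells, was lower in tumor (log2 fold change -1.60 against blood, SE 0.14, limma adjusted p = 6.04e-06), with 554 to 669 reads against 1091 to 1424. Rhbdf1, its counterpart in other cell types, had 67 to 168 reads in tumor, 0 to 3 in blood and none in bone marrow, which is at least 90.9-fold above bone marrow. Tspan15, a tetraspanin that binds Adam10, had 99 to 291 reads in tumor and at most 8 in any other library (log2 fold change against blood 7.32, SE 1.54, limma adjusted p = 0.00216).

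The genes of proteins that are shed by these enzymes were called in both directions, as were the tested genes as a whole. Over all genes, 33.7% were higher and 21.1% lower in tumor than in blood, and 26.8% and 19.5% than in bone marrow. In blood against bone marrow these shares were 13.7% and 18.1%. All 24 listed were tested, with 7 higher and 12 lower in tumor than in blood, 10 higher and 11 lower than in bone marrow, and 12 higher and 2 lower in blood than in bone marrow. The medians of the tumor comparisons were -0.24 and -0.43. The 3 genes with the largest fitted differences from blood, Ereg, Areg and Tgfa, encode ligands of the EGF receptor and were higher in tumor. Their rank depends on the constant, since no blood library had over 3 reads of them, and Hbegf, another such ligand, stood at 6.51 (SE 0.96) on the log2 scale beside 6.53 (SE 0.99) for Tgfa. Ereg had 22 to 113 reads in tumor and none elsewhere, at least 53.9-fold above blood, Areg had 52 to 89 reads at a ratio of 65.8 (95% counting interval 18 to 547.4), and Tgfa had 71 to 183 reads against at most 3 in a blood library. Tnf, chosen after its values were seen, was higher in tumor by 4.89 against blood (SE 0.23, limma adjusted p = 1.48e-07), with 3041 to 5276 reads against 58 to 133.

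All 7 inducers and binding partners of MMPs were called in tumor against blood, 5 higher and 2 lower, and 4 were higher and 3 lower against bone marrow, with medians of 1.57 and 2.00. Bsg, also known as CD147 or EMMPRIN, an inducer of MMPs, was higher than in blood (log2 fold change 2.23, SE 0.14, limma adjusted p = 7.24e-07) and had 3111 to 4525 reads in tumor. Thbs1, thrombospondin 1, was higher by 2.01 on the same scale (SE 0.20, limma adjusted p = 1.55e-05), and Itga4, an integrin subunit, was lower (log2 fold change -3.45, SE 0.15, limma adjusted p = 1.19e-07). Lcn2, the lipocalin that forms a complex with Mmp9 in neutrophils, was named after its values were seen. It had 50507 to 56600 reads in bone marrow, between 5009 and 6200 in blood, and between 2741 and 4577 in tumor (log2 fold change in tumor -4.09 against bone marrow, SE 0.24, limma adjusted p = 4.45e-07), so its groups stood in the order of those of Mmp8 and Mmp9.

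The genes whose pattern over the 9 libraries was most like that of a member are given as a description, among 8248 genes with a mean of at least 50 reads, and the points share the scaling of each library. For Mmp8 they were Wdr1 (Pearson r = 0.9936), Rps6ka1 (0.9934) and Gyg (0.9927). For Mmp9 they were Cyfip2 (0.9986), Stxbp2 (0.9985) and E2f2 (0.9985). For Adam8 they were Pstpip2 (0.9965), Gmip (0.9957) and Ifit1bl2 (0.9946). For Mmp14 they were Kcnq1ot1 (0.9923), Rabggtb (0.9912) and Ktn1 (0.9909), and for Timp1 they were Cdh6 (0.9990), Il23a (0.9981) and Rbp4 (0.9976). The latter 3 were, like Timp1, at the same low value in bone marrow and in blood.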

How the data were processed

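RNA of the 9 libraries was sequenced by the authors as paired-end reads with the SMARTSeq v2 protocol, mapped with STAR 2.5.2b to GRCm38/mm10 and counted with featureCounts 1.5.0 on GENCODE M7 genes (tool versions from the submitters' processing notes, which also name edgeR 3.8.6). The deposited values are log2 FPKM, calculated by the authors for 46517 genes. As the steps between low values show, 0.25 reads (for a library of average depth) had been added ahead of the log, library sizes had been scaled, and gene length was the genomic span for 84.9% of the 46005 identifiers found in GENCODE M21, the source of positions and exon lengths here. Whether intronic reads were counted is not given in the sources used here. Whole reads were recovered from the log2 steps for all 46517 genes (tolerance 0.01).

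Groups follow the sample titles. Log2 FPKM values of the 17714 genes that reached 5 reads in 1 or more libraries were fitted in R 4.3.3 with limma 3.58.1 (functions lmFit and eBayes, variance trend over mean log2 reads, all 9 libraries, no covariate), with Benjamini-Hochberg adjusted p under 0.05 as the threshold. The recovery of reads and the fit were also run on simulated data, with known changes in a small set of genes in tumor alone. Far more genes were called in the real data, so that run does not test the choice of library scaling. Replicate spread is between pools of mice. The members and lists were chosen with earlier results of these data known. Outside the 10 members, genes called in tumor against both groups in 1 direction were named, or the 3 with the largest difference from blood where there were more than 3, and 3 genes by likeness for 5 members. A 95% counting interval or a limit of 3 reads stands in for the fold where a group had 3 reads or fewer. Ratios within a library were compared with exact permutation tests, two-sided. Motifs were searched in RefSeq promoters. Alternatives were other filters, constants, scalings, variance priors, limma-voom on the recovered reads, the replicate number as a block and each library left out.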

Additional observations from a re-analysis of the deposited data

How the results depend on the processing

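Of 672 values for single genes under 24 alternatives, 639 kept their direction and their side of the threshold and 33 did not, and of 336 counts and ratios 328 stayed close (counts within 1.5 times the main one, ratios moved by less than the spread between replicates) and 8 did not. Requiring log2 FPKM over 0 in at least 3 libraries, which tests fewer genes, gave 2194 genes higher in tumor than in blood (5970 in the main analysis), 1745 higher in tumor than in bone marrow (4751), and 1605 higher and 1841 lower in blood than in bone marrow (2428 and 3200). With plain library totals 2255 genes were lower in tumor than in bone marrow (3458), and with median centring 5951 were lower in tumor than in blood (3731). Quantile normalization turned the log2 ratio of Mmp8 to Mmp9 between tumor and blood to 0.23 (from -0.15) and moved it to -1.42 between blood and bone marrow (from -1.05). Plain totals turned Adam10 to 0.25 against blood and 0.10 against bone marrow, and Adam17 to 0.18 and 0.43. Median centring turned Timp2 in tumor against blood to -0.48, and in blood against bone marrow Adam8 to 0.20 and Adam10 to 0.12. Without 1 library, Adam10 in blood against bone marrow was 0.02 (without blood replicate 1), Adam17 in tumor against bone marrow was 0.05 (without bone marrow replicate 2) and 0.15 (without tumor replicate 3), and Timp2 in tumor against blood was -0.16 (without tumor replicate 3); the ranges over the 9 libraries left out were -0.28 to 0.02, -0.15 to 0.15 and -0.16 to 0.57. The cause was not tested. The Mmp9 difference between blood and bone marrow was lost only where a log2 fold change of at least 1 was asked for. No effect shared by same-numbered libraries was seen. Over 9 same-numbered pairs the correlation of deviations was -0.10 to 0.02, and 0 of 9 libraries correlated best with their own number. This cannot show that the libraries were unpaired. The paper describes the neutrophils of the 3 compartments as taken from the same mouse. The labels do not say whether the numbers mark shared pools. With the replicate number as a block, 5900 genes were higher and 3727 lower in tumor than in blood, and the counts of members called were 2 and 5, as without it. Mmp19 in bone marrow and Timp1 and Mmp14 outside tumor rest on few or no reads.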
